A study of Mus musculus with 12 samples.

Results

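The genes described here encode integrins, proteins that integrins bind and other adhesion molecules, 10 of the 19938 genes compared on 12 microarrays of cultured mouse microglia. They are the integrin α chains Itga4, Itga5, Itga6, Itgal and Itgav, the β chain Itgb2, the cell surface proteins Icam1, Vcam1 and Pecam1, and the secreted protein Edil3. Each gene was read from the probe set whose only gene symbol in the platform annotation is that gene, and each had 1 such probe set, so no choice between probe sets arose. Another 85 measured genes, chosen as further integrin chains, ligands, surface adhesion molecules and adaptors, served to place them. The 10 genes and the lists were chosen with earlier results of these data known. Shares of them that passed are therefore descriptions beside the share of all genes, not tests. Of the 10 genes, 8 lay above the median level, whereas the share of all genes takes in genes of every level.

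Microglia are the resident macrophages of the brain. The cells came from C57BL/6J pups at postnatal day 7, were isolated with magnetic CD11b beads, and were grown for 3 days and treated for 6 h. One group of cultures received oligomeric Aβ42, the peptide that aggregates in Alzheimer's disease plaques, at 10 µM together with 100 nM AE1-329, a compound that activates EP4, one of the receptors of prostaglandin E2. The other groups received Aβ42 alone at 10 µM, AE1-329 alone at 100 nM, or neither. The labels list DMSO at 0.4% in the groups without Aβ42 and ethanol at 0.001% in the groups without AE1-329, and neither solvent in the groups given the matching agent. Cells of 3 litters were kept apart as the replicates of each of the 4 groups (n = 3 arrays per group). The labels number the replicates without naming a litter, and arrays of the same number are taken here to be of the same litter. CD11b is the product of Itgam and pairs with that of Itgb2, so the beads chose cells that carry both proteins. Neonatal microglia in culture stand in for microglia of the tissue.

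Integrins are pairs of an α and a β chain that tie a cell to its matrix or to other cells, and the α chain largely sets which ligand is bound. Products of Itga4, Itga5, Itga6 and Itgav pair with the β1 chain (Itgb1) and bind VCAM-1 and fibronectin, fibronectin, laminins, and RGD-bearing matrix proteins in that order. Itgav also pairs with the β3 and β5 chains. Itgal pairs only with Itgb2 to form LFA-1, the leukocyte receptor of ICAM-1. ICAM-1 and VCAM-1 are well known targets of NF-κB in endothelium, PECAM-1 binds itself between neighbouring cells, and Edil3 (also called Del-1) is a secreted ligand of αv integrins that also hinders LFA-1 from binding ICAM-1.

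Values are the deposited log2 expression levels, on which 1 unit is a 2-fold change, and levels of different probe sets are not set against each other. Changes are log2 differences of group means ± 1 standard error (from limma), and a gene passed at an adjusted p under 0.05. Array medians lay between 6.97 and 7.05. The median SD between replicates was 0.066 with Aβ42 and AE1-329 together, 0.063 with Aβ42 alone, 0.065 with AE1-329 alone and 0.109 in vehicle. All 11 measured microglia and macrophage markers lay above the array median in every group, as did 9 of the 57 measured markers of other cell types, the border macrophage marker Mrc1 and the neutrophil marker Csf3r among them. These positions rest on different probe sets and do not measure how pure the cells were. No marker was listed at 0, because these values have no true zero, and the lowest was 4.55. The number of arrays limits the precision.

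**Figure D1:**
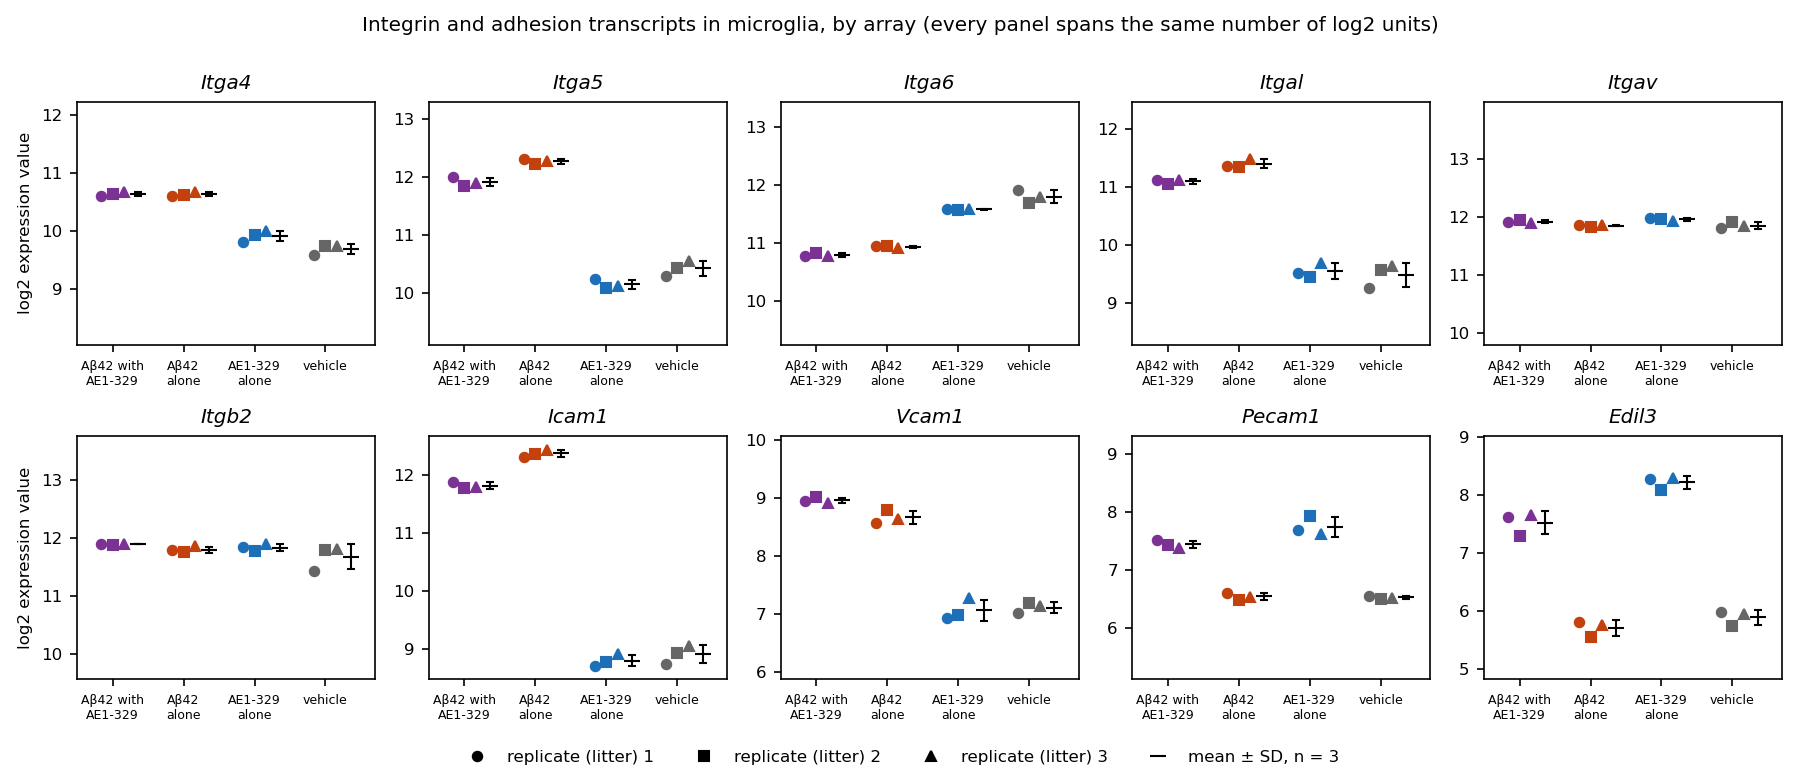
Deposited log2 expression value (vertical axis) of each of the 10 genes on each array, in 4 treatment groups (horizontal axis); symbols mark the litter, and the bar gives mean ± SD (n = 3). Icam1, Itga5, Itgal, Itga4 and Vcam1 lie higher in both groups with Aβ42 than in both groups without it, Itga6 lies lower, and Pecam1 and Edil3 lie higher in both groups with AE1-329.

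The comparison of Aβ42 alone with vehicle asked how microglia responded to the peptide. Icam1 rose 11.0-fold, Itgal 3.78-fold, Itga5 3.59-fold, Vcam1 2.94-fold and Itga4 1.92-fold, and Itga6 fell 1.82-fold. Thus 6 of the 10 genes passed, 5 higher and 1 lower, where 25.6% of all genes tested passed, 10.7% as higher and 14.8% as lower. The median change of the 10 was 0.53, against 0.02 over all genes. In cultures of whole cells, fewer cells of a type and less RNA per cell cannot be told apart.

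Icam1 (probe set 10583519), the surface ligand of LFA-1 and of the CD11b integrin, had the largest change of the 10. It read 11.89, 11.79 and 11.79 in replicates 1, 2 and 3 of Aβ42 with AE1-329, and 12.32, 12.36 and 12.44 with Aβ42 alone. In AE1-329 alone it read 8.72, 8.78 and 8.91, and in vehicle 8.74, 8.94 and 9.04. Every array with Aβ42 lay above every array without it, and the arrays with Aβ42 alone lay above those given both agents. The change with Aβ42 alone against vehicle was 3.46 ± 0.08 (adjusted p = 7.28e-12), and with Aβ42 and AE1-329 together against AE1-329 alone it was 3.02 ± 0.08 (8.10-fold, adjusted p = 2.35e-11). These comparisons share no array, and within litters the first ran from 3.40 to 3.57 and the second from 2.87 to 3.17.

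The promoter windows of Icam1 and Itga5 are shown because these 2 genes rose with Aβ42 and were lower when AE1-329 was added to it. They are RefSeq sequences of the mouse assembly GRCm38.p6, from 250 bases before to 50 after the start of the gene, which lie at chr9:21015690-21015989 on the plus strand for Icam1 and at chr15:103366742-103367041 on the minus strand for Itga5.
Icam1: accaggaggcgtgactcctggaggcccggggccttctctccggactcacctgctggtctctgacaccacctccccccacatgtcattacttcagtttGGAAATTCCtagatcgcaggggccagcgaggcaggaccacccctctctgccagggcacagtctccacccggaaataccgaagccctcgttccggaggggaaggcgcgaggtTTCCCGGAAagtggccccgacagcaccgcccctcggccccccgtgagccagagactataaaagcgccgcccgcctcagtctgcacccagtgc
Itga5: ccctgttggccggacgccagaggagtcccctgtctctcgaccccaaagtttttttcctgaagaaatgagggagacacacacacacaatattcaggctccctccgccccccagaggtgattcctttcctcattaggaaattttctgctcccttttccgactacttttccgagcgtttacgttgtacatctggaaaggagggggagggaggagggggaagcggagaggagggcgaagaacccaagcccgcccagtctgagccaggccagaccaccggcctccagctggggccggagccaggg
Both strands were searched for the κB consensus of NF-κB, the cAMP response element TGACGTCA and its part TGACG, the AP-1 motif TGANTCA, the STAT motif TTCNNNGAA and the interferon-stimulated response element (ISRE). The capitals in Icam1 mark TTCCCGGAA, 42 bases before the start, a match of TTCNNNGAA that 8.3% of 32851 promoter windows also hold, and GGAAATTCC, 153 bases before the start. That second string, a κB-like variant outside the consensus, was searched for only after the sequence had been read, and 0.3% of the windows hold it. Of the other motifs, the κB consensus occurs in 8.5% of the windows, TGACGTCA in 1.8%, TGACG in 20.8%, TGANTCA in 7.8% and the ISRE in 3.4%. The Itga5 window held none of the strings searched, nor did those of Itga4 and Itgav, and the table has windows for these 4 of the 10 genes. These matches describe letters and were not tested for binding.

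Itgal (probe set 10557591), the α chain of LFA-1, followed the same order of groups as Icam1 among the arrays with Aβ42. It read 11.12, 11.06 and 11.13 with Aβ42 and AE1-329 together and 11.37, 11.36 and 11.50 with Aβ42 alone. Without Aβ42 it read 9.52, 9.45 and 9.70 in AE1-329 alone and 9.26, 9.57 and 9.64 in vehicle. The levels with and without Aβ42 did not overlap, while those of AE1-329 alone and vehicle did. The change was 1.92 ± 0.09 with Aβ42 alone against vehicle (adjusted p = 5.68e-09) and 1.55 ± 0.09 with both agents against AE1-329 alone (adjusted p = 4.86e-08).

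Itgb2 (probe set 10364262), the β chain with which Itgal pairs, passed in no comparison with all 12 arrays. Its values ran from 11.88 to 11.90 with both agents, from 11.75 to 11.85 with Aβ42 alone, from 11.77 to 11.89 with AE1-329 alone and from 11.42 to 11.81 in vehicle. One array stood apart, vehicle replicate 1 at 11.42, and the other 11 lay within a narrow band. The change with Aβ42 alone against vehicle was 0.12, with a 95% interval from -0.07 to 0.31, and without vehicle replicate 1 it was -0.0026. Both agents against vehicle passed without vehicle replicate 3 (0.29, adjusted p = 0.0380). The α chain of LFA-1 thus changed by 1.92 where its β chain changed by 0.12.

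Itga5 (probe set 10433114), the α chain of the classical fibronectin receptor, read 11.99, 11.84 and 11.90 with both agents and 12.31, 12.22 and 12.27 with Aβ42 alone. It read 10.23, 10.09 and 10.11 with AE1-329 alone and 10.28, 10.42 and 10.55 in vehicle. All 4 groups lay apart from their neighbours in the order Aβ42 alone, both agents, vehicle and AE1-329 alone. Itga5 rose by 1.85 ± 0.07 with Aβ42 alone against vehicle (adjusted p = 7.12e-10) and by 1.77 ± 0.07 with both agents against AE1-329 alone (adjusted p = 1.01e-09).

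Itga4 (probe set 10473125) and Vcam1 (probe set 10501608) encode a receptor chain and its ligand, and both rose with Aβ42. Itga4 read 10.59, 10.63 and 10.67 with both agents and 10.59, 10.62 and 10.67 with Aβ42 alone, so these groups overlapped throughout. It read 9.81, 9.92 and 9.99 with AE1-329 alone and 9.58, 9.73 and 9.74 in vehicle. Its change was 0.94 ± 0.06 with Aβ42 alone against vehicle (adjusted p = 1.10e-07) and 0.72 ± 0.06 with both agents against AE1-329 alone (adjusted p = 1.55e-06). Vcam1 read 8.96, 9.02 and 8.93 with both agents, 8.57, 8.80 and 8.65 with Aβ42 alone, 6.94, 6.99 and 7.27 with AE1-329 alone, and 7.01, 7.20 and 7.14 in vehicle. Here the arrays given both agents were the highest of the 12, and AE1-329 alone and vehicle overlapped. Vcam1 rose by 1.56 ± 0.09 with Aβ42 alone (adjusted p = 2.53e-08) and by 1.90 ± 0.09 with both agents against AE1-329 alone (adjusted p = 3.74e-09).

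Itga6 (probe set 10472820), an α chain of laminin receptors, was the only one of the 10 to pass as lower with Aβ42 alone. With the replicate block, which sets arrays of the same number against each other, Edil3 also did (-0.18, adjusted p = 0.0204). Itga6 read 10.77, 10.84 and 10.78 with both agents and 10.94, 10.94 and 10.91 with Aβ42 alone. Without Aβ42 it read 11.58 on all 3 arrays of AE1-329 alone and 11.91, 11.69 and 11.79 in vehicle. The groups lay apart from one another, in descending order vehicle, AE1-329 alone, Aβ42 alone and both agents. The change was -0.86 ± 0.06 with Aβ42 alone (adjusted p = 1.14e-07) and -0.78 ± 0.06 with both agents against AE1-329 alone (adjusted p = 3.00e-07).

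Itgav (probe set 10473281), the α chain that binds Edil3, changed least of the α chains among the genes described here. Its 12 values ran from 11.90 to 11.95 with both agents, from 11.84 to 11.86 with Aβ42 alone, from 11.93 to 11.98 with AE1-329 alone and from 11.81 to 11.91 in vehicle. Ranges of groups next to each other in order of level overlapped. With AE1-329 alone against vehicle, Itgav changed by 0.11 (95% interval from 0.003 to 0.21, adjusted p = 0.220). Arrays with both agents all lay above those with Aβ42 alone (0.07, adjusted p = 0.495), a separation that 32.0% of all genes had. The change with Aβ42 alone was -0.002, with a 95% interval from -0.11 to 0.10, and no comparison passed.

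**Figure D2:**
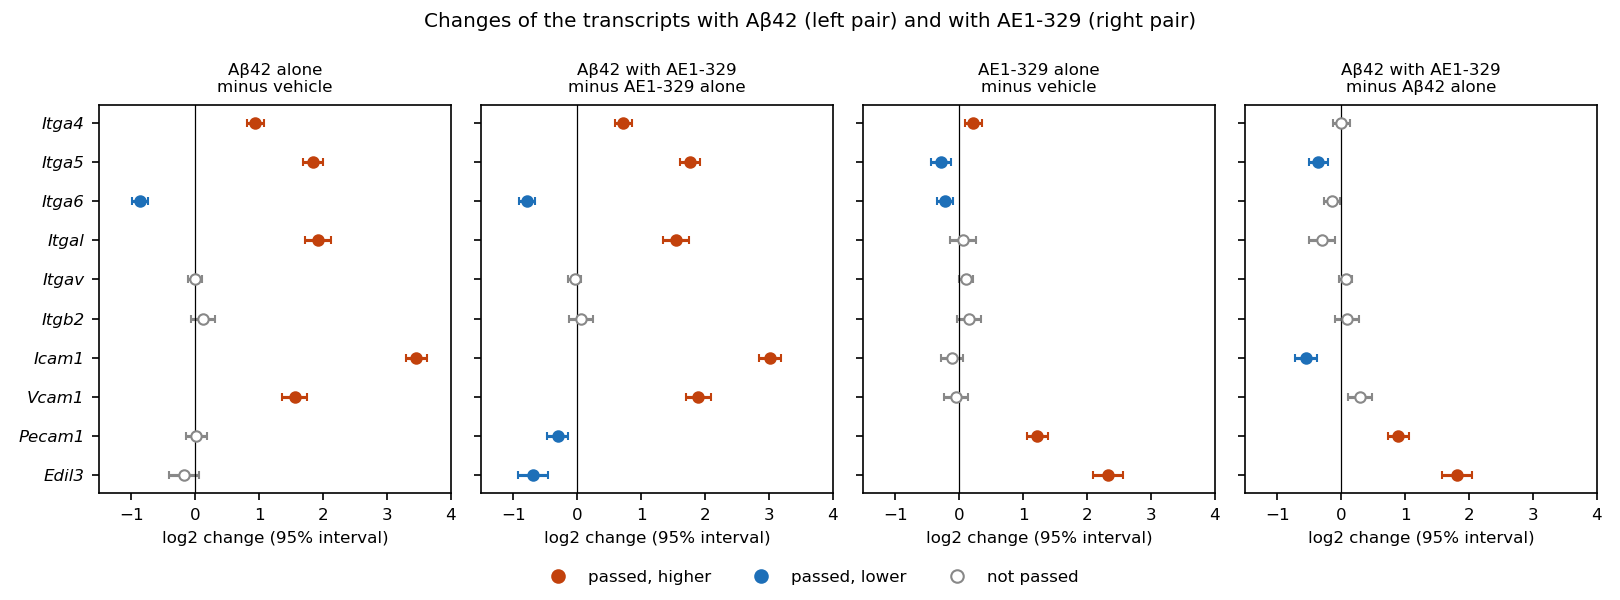
Log2 change of each gene (horizontal axis, with its 95% interval) in 4 comparisons; filled points passed limma's test at an adjusted p under 0.05. Icam1 shows the largest change in both panels on Aβ42 (3.46 and 3.02), and Edil3 in both panels on AE1-329 (2.33 and 1.81).

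The comparison of AE1-329 alone with vehicle asked what the EP4 agonist did without Aβ42. Edil3 rose 5.02-fold and Pecam1 2.33-fold. Itga4 rose 1.17-fold, and Itga5 and Itga6 fell 1.21-fold and 1.16-fold. In all, 5 of the 10 passed, 3 higher and 2 lower, where 10.2% of all genes passed, 4.71% as higher and 5.45% as lower. Changes that passed at 2-fold or more and higher numbered 2 of the 10, against 0.271% of all genes. The 10 genes were chosen with earlier results of these data known, so this contrast is a description and not a test.

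Edil3 (probe set 10406504) read 7.62, 7.30 and 7.65 with both agents and 5.81, 5.55 and 5.76 with Aβ42 alone. It read 8.27, 8.09 and 8.29 with AE1-329 alone and 5.99, 5.73 and 5.94 in vehicle. Every array with AE1-329 lay above every array without it, and AE1-329 alone lay above both agents. The change was 2.33 ± 0.11 with AE1-329 alone against vehicle (adjusted p = 4.49e-08) and 1.81 ± 0.11 with both agents against Aβ42 alone (3.51-fold, adjusted p = 3.27e-07). These comparisons share no array, and within litters the first ran from 2.29 to 2.35 and the second from 1.75 to 1.89. In vehicle Edil3 lay below the median of every array, and with signal over background unknown the true fold may be higher.

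Pecam1 (probe set 10392221) had the same order of its highest groups. It read 7.51, 7.43 and 7.38 with both agents, 6.61, 6.49 and 6.53 with Aβ42 alone, 7.69, 7.94 and 7.61 with AE1-329 alone, and 6.56, 6.49 and 6.52 in vehicle. Again every array with AE1-329 lay above every array without it, and Aβ42 alone overlapped vehicle. Pecam1 rose by 1.22 ± 0.08 with AE1-329 alone (adjusted p = 5.23e-07) and by 0.90 ± 0.08 with both agents against Aβ42 alone (1.86-fold, adjusted p = 7.66e-06). Passing as higher in both AE1-329 comparisons held for 2.71% of all genes.

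Pecam1 and Vcam1 are also markers of endothelium, so 12 measured endothelial and mural genes were read beside them. Their mean level ran from 6.78 to 7.04 with both agents, from 6.89 to 7.05 with Aβ42 alone, from 6.85 to 7.10 with AE1-329 alone and from 6.81 to 7.12 in vehicle. With AE1-329 alone against vehicle, 1 of the 12 passed as higher, the VEGF receptor gene Kdr (0.64, adjusted p = 0.00144), and 1 as lower, the VEGF receptor gene Flt1 (-0.44, adjusted p = 3.29e-04). That is 16.7% of the 12, where 10.2% of all genes passed. With Aβ42 alone, Kdr passed as lower (-0.50, adjusted p = 0.00262) and none passed as higher (8.3% in all, against 25.6%). With both agents against Aβ42 alone, Flt1 (-0.47, adjusted p = 1.66e-04) and Cspg4 (-0.32, adjusted p = 0.0420) passed as lower and none as higher (16.7%, against 11.0%). Kdr passed as lower with both agents against AE1-329 alone (-1.14, adjusted p = 2.77e-06). Apart from Kdr, Flt1 and Cspg4, the 12 genes passed in none of the 6 comparisons.

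**Figure D3:**
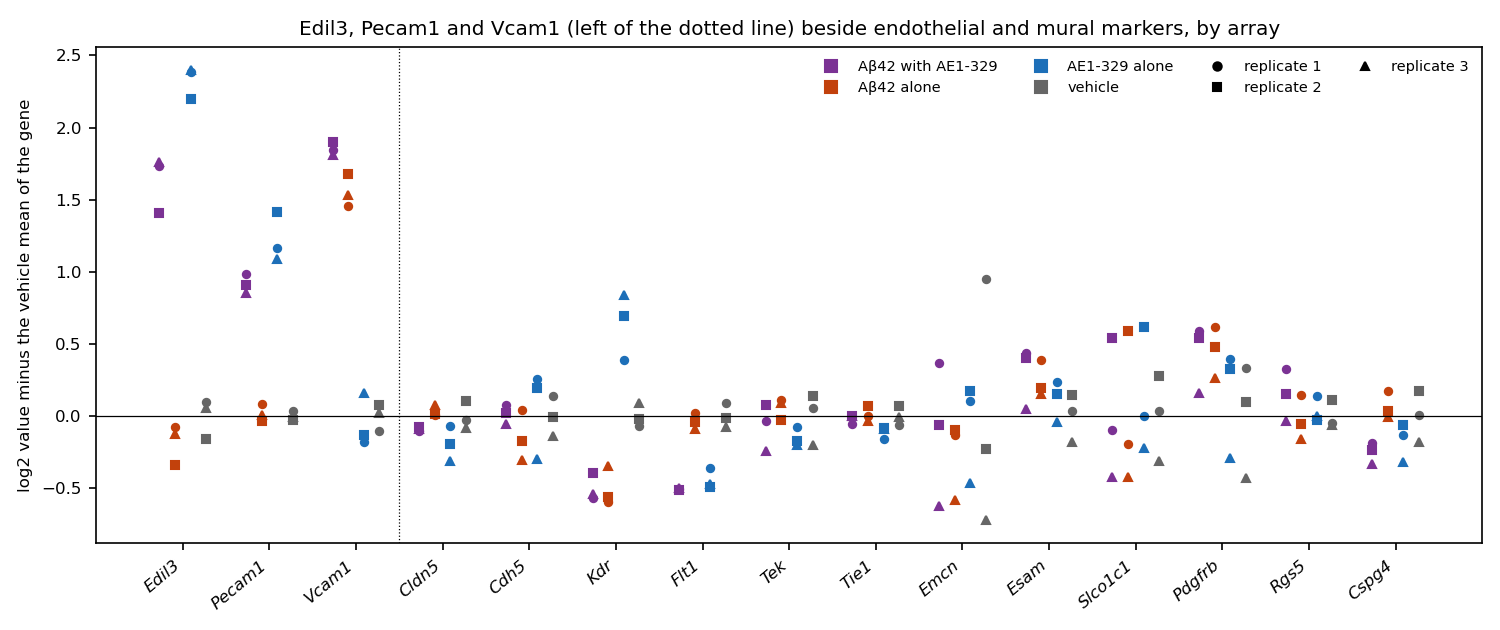
Log2 value minus the vehicle mean of the same gene (vertical axis) on each array, for Edil3, Pecam1 and Vcam1 and for 12 endothelial and mural markers; colours mark the group and symbols the litter. Edil3 and Pecam1 rise with AE1-329 and Vcam1 with Aβ42, whereas Kdr is the only marker that passed as higher with AE1-329 alone.

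The smaller changes with AE1-329 alone were near the threshold. Itga4 changed by 0.22 ± 0.06 (adjusted p = 0.0372), Itga5 by -0.28 ± 0.07 (adjusted p = 0.0268) and Itga6 by -0.22 ± 0.06 (adjusted p = 0.0293), and in each the 3 litters agreed in sign. None passed when the fit held only these 2 groups (adjusted p of 0.127 to 0.177). Itga4 was lost without any array with Aβ42, without AE1-329 alone replicate 2 or 3 or without vehicle replicate 1 (adjusted p from 0.0512 to 0.158). Itga5 was lost without AE1-329 alone replicate 2 or 3 or vehicle replicate 2 or 3 (0.0583 to 0.110), and Itga6 without any AE1-329 alone replicate or vehicle replicate 1 or 3 (0.0525 to 0.0894). The calls for Edil3 and Pecam1 in both AE1-329 comparisons held without each of the 12 arrays.

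The comparison of both agents with Aβ42 alone asked what AE1-329 changed in cells given Aβ42. Edil3 and Pecam1 rose, as given above, and Icam1 and Itga5 fell. Of the 10 genes 4 passed, where 11.0% of all genes did, 5.99% as higher and 5.04% as lower. Icam1 fell by 0.55 ± 0.08 (1.47-fold lower, adjusted p = 4.69e-04), and in each litter, by 0.43, 0.58 and 0.65. Itga5 fell by 0.35 ± 0.07 (1.28-fold lower, adjusted p = 0.00596), in each litter by 0.31, 0.38 and 0.37. With both agents Icam1 was still 7.52-fold and Itga5 2.81-fold higher than in vehicle. Hence for these genes the fall with AE1-329 was smaller than the rise with Aβ42.

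Itgal and Vcam1 moved in opposite directions and came close to the threshold there. Itgal changed by -0.30 ± 0.09 (adjusted p = 0.0575) and Vcam1 by 0.29 ± 0.09 (adjusted p = 0.0514), with no overlap between the groups, as held for 32.0% of all genes. With the litter as a replicate block both passed (adjusted p = 0.0187 for Itgal and 0.0263 for Vcam1). Itgal also passed without AE1-329 alone replicate 3 (0.0479), vehicle replicate 1 (0.0102) or vehicle replicate 3 (0.0414). Vcam1 passed without Aβ42 alone replicate 2 (0.0421), AE1-329 alone replicate 1 (0.0496) or 3 (0.0178), or vehicle replicate 1 (0.0395). With only the 2 groups in the fit both passed (0.00748 for Itgal and 0.0187 for Vcam1), as they did among genes above the median level (0.0370 and 0.0323, in the same order). Itgal passed too after quantile normalization (0.0461) and with a trended, robust prior (0.0425), under which Vcam1 lay at the threshold, just on its passing side. ICAM-1 and VCAM-1 are often named together as adhesion ligands raised in inflammation, and here AE1-329 went with a lower level of Icam1 and, short of the threshold, a higher level of Vcam1.

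The comparison of both agents with AE1-329 alone gave the Aβ42 response in the presence of the agonist. Here 8 of the 10 passed, where 22.0% of all genes did, 9.77% as higher and 12.2% as lower. The 5 that rose were Icam1, Vcam1, Itga5, Itgal and Itga4, with the values given above, and Itga6 fell. Edil3 and Pecam1 also fell, by 0.69 ± 0.11 (1.62-fold lower, adjusted p = 2.98e-04) and by 0.31 ± 0.08 (1.24-fold lower, adjusted p = 0.0104). Without AE1-329, Aβ42 changed Edil3 by -0.18 ± 0.11 (adjusted p = 0.279, or 0.0204 with the replicate block) and Pecam1 by 0.02 ± 0.08 (adjusted p = 0.908). Against vehicle, both agents together passed for 8 of the 10, 7 higher and 1 lower, where 21.2% of all genes passed, 9.27% as higher and 11.9% as lower.

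**Figure D4:**
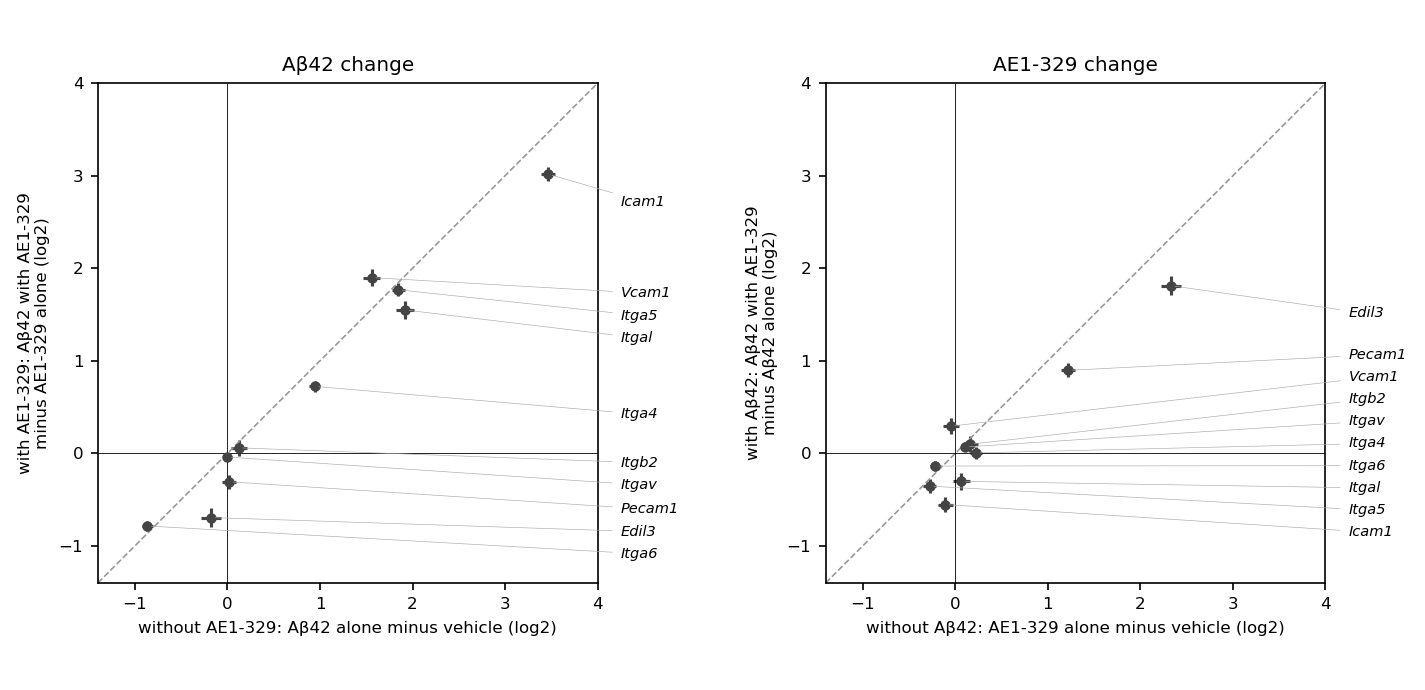
Each gene's log2 change with one agent in the presence of the other (vertical axis) against the change without it (horizontal axis), for Aβ42 (left) and AE1-329 (right), with bars of 1 standard error and a dashed line of equal change. In both panels Edil3, Icam1, Itgal, Pecam1 and Itga4 lie below the line and Vcam1 above it. The vertical distance from the line is the same in both panels. It is the interaction of the agents, which passed limma's test for no gene shown.

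Whether the AE1-329 change differed with and without Aβ42 was tested as the interaction, the change in the presence of Aβ42 minus the change in its absence. No gene of the 10 passed limma's test, where 1.95% of all genes did, and 6 of the 10 had an unadjusted p under 0.05, against 10.4% of all genes. The values were -0.45 ± 0.11 for Icam1 (adjusted p = 0.0683) and -0.52 ± 0.15 for Edil3 (adjusted p = 0.129). With the replicate block 2 of the 10 passed, Icam1 (adjusted p = 0.0270) and Edil3 (adjusted p = 0.00184), while the calls over all genes went up to 677, against 389 without it. Icam1 also passed without vehicle replicate 3 (-0.51, adjusted p = 0.0299). For Edil3 the 3 litters gave -0.48, -0.61 and -0.46.

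Of the 85 other adhesion genes, 12 rose and 14 fell with Aβ42 alone, 30.6% in all against 25.6% of all genes, and their median change of -0.02 was close to the 0.02 of all genes. With AE1-329 alone 10 rose and 6 fell (18.8%, against 10.2% of all genes), and with both agents against Aβ42 alone 9 rose and 5 fell (16.5%, against 11.0%). Against AE1-329 alone, both agents raised 8 and lowered 12, a total of 20 (23.5%, against 22.0% of all genes) that became 31 with the replicate block. Against vehicle both agents raised 11 and lowered 13 (28.2%, against 21.2%).

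Among the 7 other β chains, which complete the receptors, 2 fell with Aβ42 alone and none rose, a share close to the 25.6% of all genes. Itgb5, a partner of Itgav, fell by 0.71 ± 0.08 (adjusted p = 2.43e-05), and by 0.84 ± 0.08 with both agents against AE1-329 alone (adjusted p = 6.00e-06). Itgb3, another partner of Itgav, fell by 0.36 ± 0.06 with Aβ42 alone (adjusted p = 8.70e-04) and by 0.43 ± 0.06 with AE1-329 alone (adjusted p = 7.96e-04). Itgb1, the shared partner of Itga4, Itga5 and Itga6, changed by 0.07 with Aβ42 alone, with a 95% interval from -0.03 to 0.18. Itgb7, the other partner of Itga4, changed by 0.10 (adjusted p = 0.269). Itga4 and Itga5 thus rose with Aβ42 alone, where no change of Itgb1 or Itgb7 passed.

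Of the 13 other α chains, Itga9 changed most with each agent. It read 9.45, 9.45 and 9.45 with both agents, 9.56, 9.45 and 9.45 with Aβ42 alone, 9.64, 9.60 and 9.72 with AE1-329 alone, and 8.64, 8.69 and 8.76 in vehicle. Every treated group lay above vehicle, and both agents together were no higher than either alone. Itga9, an α chain whose ligands include VCAM-1 and osteopontin, rose by 0.79 ± 0.05 with Aβ42 alone (adjusted p = 1.85e-07) and by 0.96 ± 0.05 with AE1-329 alone (adjusted p = 2.35e-07). Added to Aβ42, AE1-329 changed it by -0.03 (adjusted p = 0.834), and the interaction was -0.99 ± 0.08 (adjusted p = 4.93e-05). Itgam, the α chain of the bead antigen CD11b, changed by -0.18 with Aβ42 alone (adjusted p = 0.0246), 0.18 with AE1-329 alone (adjusted p = 0.0438) and 0.22 with both agents against Aβ42 alone (adjusted p = 0.0157). Its first call was lost without Aβ42 alone replicate 2 or 3 or vehicle replicate 2 or 3 (0.0578 to 0.0917). The second was lost without any array but vehicle replicate 3 (0.0590 to 0.154), and the third without replicate 1 or 3 of both agents or replicate 2 or 3 of Aβ42 alone (0.0564 to 0.0666). With only the groups of the comparison in the fit, the first and the second were lost too (0.112 and 0.206). The second was also lost with all probe sets tested (0.0727).

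Of 19 other surface adhesion molecules 6 rose and 3 fell with Aβ42 alone, where 10.7% of all genes rose and 14.8% fell. Ninj1, a membrane protein of cell adhesion and of membrane rupture, rose by 0.97 ± 0.06 with Aβ42 alone (adjusted p = 6.99e-08) and by 0.63 ± 0.06 with AE1-329 alone (adjusted p = 2.36e-05). Cd44, the hyaluronan receptor, rose by 0.54 ± 0.05 with Aβ42 alone and by 0.35 ± 0.05 with AE1-329 alone, and by 0.29 ± 0.05 when AE1-329 was added to Aβ42 (adjusted p = 0.00140). Cd47, the receptor of thrombospondin and the signal against phagocytosis, rose by 0.49 ± 0.05 with AE1-329 alone (adjusted p = 7.81e-05). The synaptic adhesion gene Cadm1 fell by 0.43 ± 0.05 with Aβ42 alone (adjusted p = 3.59e-05).

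Of 19 other secreted ligands 2 rose and none fell in each AE1-329 comparison, a share close to the 10.2% (alone) and 11.0% (added to Aβ42) of all genes that passed. Thbs1, thrombospondin 1, read 12.56, 12.61 and 12.51 with both agents, against 11.38, 11.66 and 10.50 with Aβ42 alone. It read 13.16, 13.15 and 13.14 with AE1-329 alone, against 11.89, 12.04 and 11.21 in vehicle. Groups with AE1-329 were tight and lay above the others, whose replicate 3 was the lowest in both. The change was 1.44 ± 0.25 with AE1-329 alone (adjusted p = 0.00212) and 1.38 ± 0.25 with AE1-329 added to Aβ42 (adjusted p = 0.00265). Lamc1, a laminin chain and so part of the ligand of Itga6, rose by 0.50 ± 0.06 when AE1-329 was added to Aβ42 (adjusted p = 1.22e-04), and Npnt, a ligand of another α chain, fell by 0.81 ± 0.19 with Aβ42 alone (adjusted p = 0.00546). Mfge8, which like Edil3 bears an RGD site for αv integrins, changed by 0.06 with AE1-329 alone (adjusted p = 0.832).

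Of 27 genes of integrin activation and adhesion adaptors, 4 rose and 7 fell with Aβ42 alone, against 10.7% and 14.8% of all genes. Fyb, an adaptor of inside-out integrin activation in leukocytes, rose by 0.78 ± 0.07 (adjusted p = 2.80e-06) and the small GTPase gene Rap1b by 0.45 ± 0.05 (adjusted p = 1.26e-05). Rassf5, whose product links Rap1 to LFA-1, fell by 0.67 ± 0.08 (adjusted p = 3.75e-05). In both AE1-329 comparisons the adaptors held the largest rise (Cytip) and the largest fall (Apbb1ip) of the 85 other adhesion genes. Apbb1ip, whose product (RIAM) carries talin to integrins, fell by 1.06 ± 0.07 both with AE1-329 alone (2.08-fold lower, adjusted p = 5.52e-07) and when it was added to Aβ42 (adjusted p = 6.75e-07). Cytip, which binds cytohesin-1 and is known to lower LFA-1 adhesion, read 9.12, 9.28 and 9.39 with both agents, 6.10, 5.83 and 6.23 with Aβ42 alone, 11.06, 11.31 and 11.09 with AE1-329 alone, and 6.96, 6.79 and 6.92 in vehicle. It rose 19.2-fold with AE1-329 alone (4.26 ± 0.10, adjusted p = 1.23e-10) and 9.24-fold when AE1-329 was added to Aβ42 (3.21 ± 0.10, adjusted p = 2.21e-09). Cyth1, the gene of cytohesin-1, rose by 0.89 ± 0.06 with AE1-329 alone (adjusted p = 1.06e-06) and fell by 0.53 ± 0.06 with Aβ42 alone (adjusted p = 1.92e-05).

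The interaction passed for 5 of the 85 other adhesion genes, all lower (5.9%, against 1.95% of all genes), and for 8 with the replicate block, with which 3.40% of all genes passed. Without the block they were Itga9, given above, Cytip (-1.05 ± 0.15, adjusted p = 0.00224), Cyth1 (-0.51 ± 0.09, adjusted p = 0.00679), the focal adhesion adaptor Pxn (-0.52 ± 0.11, adjusted p = 0.0274) and Ninj1 (-0.38 ± 0.09, adjusted p = 0.0396). Pxn was lost without any array of the 3 treated groups (0.0579 to 0.0788). Ninj1 was lost without any of these or vehicle replicate 2 (0.0665 to 0.115).

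**Figure D5:**
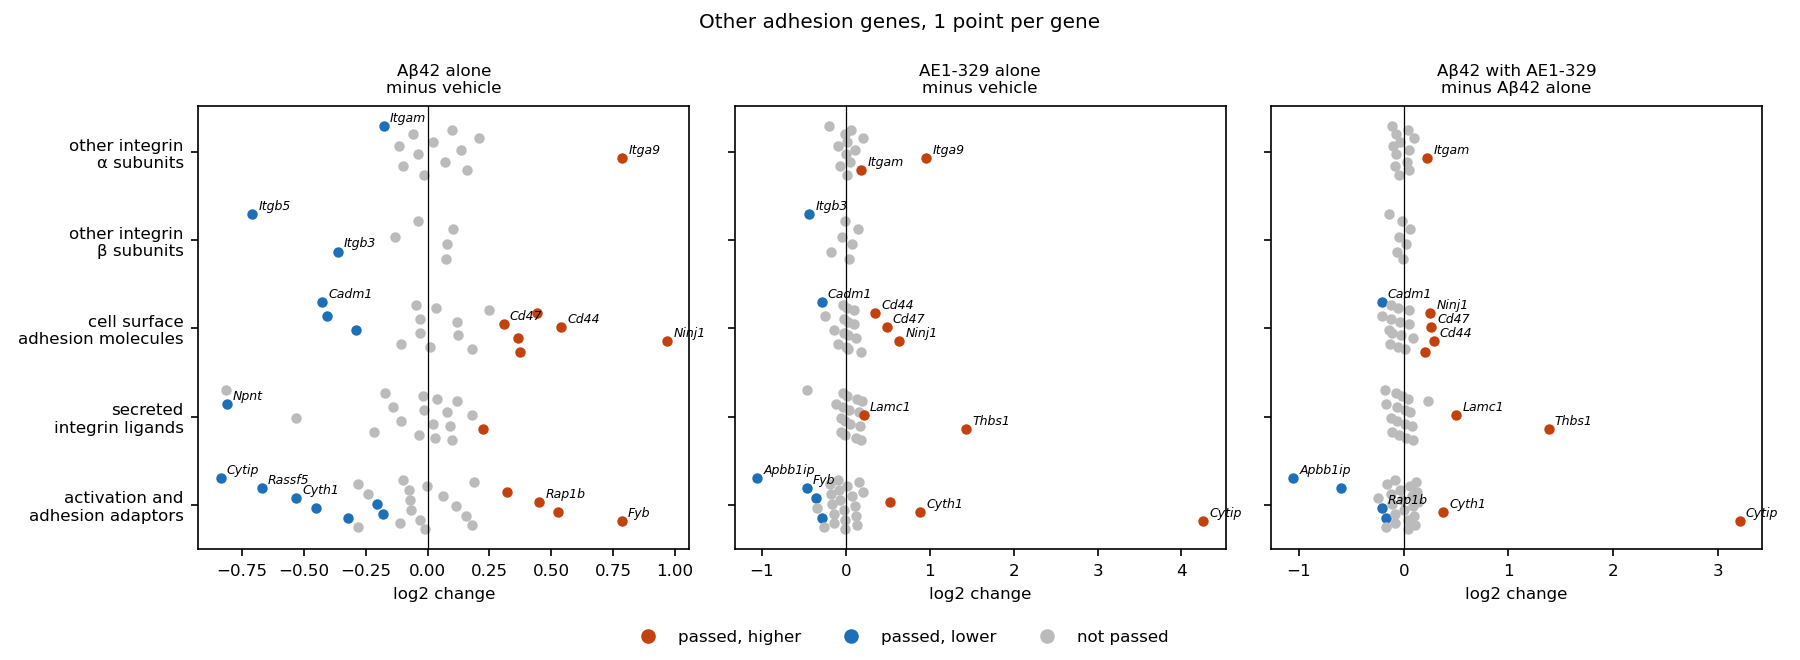
Log2 change (horizontal axis) of 85 other adhesion genes in 5 lists, 1 point per gene, in 3 comparisons whose axes differ in scale; colour marks genes that passed as higher or lower. Cytip stands farthest to the right in both panels on AE1-329 (4.26 and 3.21), and Itga9 is the only other α chain beyond 0.5 with Aβ42 alone.

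Among the 10 genes, levels over the 12 arrays fell into sets. Pearson's r between Icam1 and Itgal was 1.00, between Icam1 and Itga5 0.99, between Icam1 and Vcam1 0.97 and between Pecam1 and Edil3 0.98, while Itga6 ran against Itga4 at -0.99. These values describe 12 arrays in 4 groups, and so largely the differences between the groups. Over all genes, the levels most like those of Icam1 were of Sdc4, Slc2a6 and Pik3ap1 (each at r of 1.00), and those most like Itgal were of Dcbld2, Rhbdf2 and Reps1 (1.00). For Itga5 they were Gadd45b, Sephs2 and Tnf (1.00), for Itga4 Nfkb2, Tnfrsf1b and Helz2 (0.99), and for Vcam1 Saa3, Gm6377 (both 1.00) and Nfkbie (0.99). For Itga6 they were Dnajb14 (1.00), Gpr183 and Gyg (both 0.99). Pecam1 was closest to Neurl3, Csf2rb and Edil3 (0.98), and Edil3 to Crem, Ece1 and Csf2rb (0.99). The closest genes reached r of 0.95 for Itgav (Cdk2ap2) and 0.97 for Itgb2 (Rbm42), whose levels varied little.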

How the data were processed

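The authors deposited log2 expression values per probe set of Affymetrix Mouse Gene 1.0 ST arrays. Per the submitters' processing notes, the tools included RMA and Partek 6.5, at steps that are unstated. That values are on a log2 scale was inferred from their range (2.79 to 13.95). Filters and build were not given in the sources used here. Groups and replicate numbers came from the labels. Of 35556 probe sets, 21789 had 1 gene symbol, and the one with the highest mean per gene was kept.

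Group means of 19938 genes were estimated over the 12 arrays together (limma 3.58.1, R 4.3.3), which gave 8 residual and 4.54 prior degrees of freedom. Two-sided p-values were adjusted by Benjamini-Hochberg within each of 6 comparisons (threshold 0.05). The fit was tested on simulated data.

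The design text names 3 litters as the replicates of every treatment, and the labels number the replicates. That equal numbers mark the same litter is an inference from both. Deviations from the group means correlated at 0.33 on average between arrays of the same number (0.0040 to 0.54, 17 of 18 pairs above 0.1). Between arrays of other numbers the average was -0.162, and all 12 arrays were closest to their own number. The litter as a replicate block was an alternative.

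All 10 genes are named. Other adhesion genes are named if they were among the 4 smallest p of their list in a comparison or by role (Itgb1, Itgb3, Itgb5, Itgb7, Itgam, Mfge8, Cd47 and Cytip among them), and likeness took the 3 genes with the highest r. The genes and lists were chosen with earlier results of these data known. Comparisons that share a group share its arrays. Alternatives are described in the closing section.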

Additional observations from a re-analysis of the deposited data

How the results depend on the processing

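Each change of a gene and each count of passing genes was recomputed with the replicate block, with only genes above the median level, with the mean of a gene's probe sets, with quantile normalization again, with all probe sets tested, with limma's trended, robust prior, with only the groups of the comparison, and without each of the 12 arrays. Of the 60 changes of the 10 genes, 44 kept direction and side of the threshold throughout. Only-groups fits cannot be made for the interaction, and Pecam1 and Edil3 lie below the median level and were not tested there. The replicate block changed no other call of the 10 genes than those given in the report. Signal over background was not used here, so the limit of dim probe sets is unknown. The causes of the shifts below were not tested, beyond fewer genes tested above the median and fewer arrays in fits to part of them.

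For AE1-329 alone, the 5 of 10 genes that passed became 2 with all probe sets tested, 3 above the median level and 2 with only the groups of the comparison, and 2 to 4 without single arrays. All genes went to 970 with only these groups, against 2026. In the interaction, the 0 of 10 became 2 with the replicate block, 1 above the median level, 1 with the trend and robust prior, and 0 to 1 without single arrays. Other adhesion genes there went to 8 with the replicate block and 3 with all probe sets, against 5, and to 3 to 7 without single arrays. All genes went to 677 with the block and 246 to 557 without single arrays, against 389. For both agents against AE1-329 alone, the other adhesion genes went to 31 with the block, against 20. Against Aβ42 alone they numbered 9 to 16 without single arrays, against 14, with 9 without replicate 3 of both agents or replicate 2 or 3 of Aβ42 alone.

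Signs turned only for changes near 0 that had not passed, over the 12 fits without a single array. With Aβ42 alone, Itgav ranged from -0.0265 to 0.0271 (0.0052 without Aβ42 alone replicate 2, 0.0271 without vehicle replicate 2), Itgb2 from -0.0026 (without vehicle replicate 1) to 0.1911, and Pecam1 from -0.0147 (without Aβ42 alone replicate 1) to 0.0448. With AE1-329 alone, Itgal ranged from -0.0469 (without vehicle replicate 1) to 0.1397, with -0.0077 without AE1-329 alone replicate 3, Vcam1 from -0.1516 to 0.0157 (without AE1-329 alone replicate 1), and Mfge8 from -0.0746 (without vehicle replicate 1) to 0.1249. With both agents against Aβ42 alone, Itga4 ranged from -0.0157 (without replicate 3 of both agents) to 0.0247, with -0.0129 without Aβ42 alone replicate 1, and Itga9 from -0.0507 to 0.0034 (without that array). The interaction of Itgb2 ranged from -0.1317 to 0.0620 (without vehicle replicate 1).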
